A study of Homo sapiens with 8 samples.

Results

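HepG2 cells treated with the soy isoflavone genistein were compared with HepG2 cells that received its vehicle, DMSO. The comparison used the 3 libraries whose titles name genistein and the 3 whose titles name the control, 6 of the 8 libraries of the series, and left out 2 libraries of cells treated with the bone morphogenetic protein BMP6. HepG2 is an established line from a human hepatocellular carcinoma, so every library comes from a single tumour background, and the replicates are biological ones per the series design. Cells were grown in medium with 10% serum, moved 24 h after plating to medium with 1% serum, kept there for 8 h before an 18 h treatment, and all wells, treated or not, held 1% DMSO. The series design gives genistein as 10 micromolar, whereas the treatment protocol prints 10 mM, so the dose carries that conflict. PolyA RNA with integrity numbers above 8.5 was sequenced on a Genome Analyzer II. The title of the series names hepcidin, and the comparison addresses how genistein changes hepcidin and the other transcripts of these cells.

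Genistein is known as an inhibitor of protein tyrosine kinases, including the EGF receptor, as a poison of DNA topoisomerase II and as a ligand of oestrogen receptors. Hepatocytes are the main source of hepcidin, the peptide hormone that binds the iron exporter ferroportin and so limits the entry of iron into plasma. BMP ligands, acting through SMAD transcription factors, and interleukin-6, acting through STAT3, are the best known inducers of the hepcidin gene HAMP. Hepatocytes also make most plasma proteins, lipoproteins, cholesterol and bile acids, and conjugate isoflavones with glucuronic acid and sulfate.

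The values are FPKM, fragments per kilobase of transcript scaled to the number of mapped fragments, as the authors deposited them. Totals ranged from 1851985 to 2846743 FPKM per library and the number of sequenced reads is unknown, so no counting interval was computed. Of 20897 genes listed, 12501 had at least 1 FPKM in at least 2 of the 6 libraries and were tested. Between 255 and 2027 of the tested genes were listed at exactly 0 in a library, and these genes are given by their value in each library. A 0 can be a failed estimate, but only 31 to 55 of all listed genes per library carried a failed-estimate status. The most such zeros were in genistein 2 (2027) and DMSO 1 (1530). The first principal component of the log2 values (52.1% of variance) separated the groups, and the second (25.6%) set DMSO 1 (score 78.57) and genistein 2 (score 63.93) apart from the other 4 libraries. For all genes and for some lists, counts are therefore also given with these 2 libraries left out together. That setting leaves 2 libraries in each group.

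The label of the cells was checked against marker genes. All 8 hepatocyte markers were present, and their summed level was 102700 to 124500 FPKM in DMSO and 73730 to 101500 FPKM after genistein. With all 6 libraries fitted, APOA1 and TTR fell among them and the other 6 did not pass, with log2 changes from -0.51 (APOB) to 0.86 (ALB). All 6 endothelial markers with an entry were listed at 0 in every library, as were 7 of 9 stellate and fibroblast markers, including COL1A1, COL1A2 and COL3A1. The exceptions were ACTA2 (248 to 263 FPKM in DMSO, 139 to 176 after genistein) and PDGFRB (1.88 to 4.91 and 0 to 2.92 FPKM). Neither passed, and the stellate and fibroblast list summed to 252.9 to 265.3 FPKM in DMSO and 139 to 178.8 FPKM after genistein. The defining macrophage and leukocyte genes CD163, MARCO, CSF1R and PTPRC were also at 0. In the same fit CD68 rose and LYZ fell among the 7 macrophage markers. Their summed level was 3250 to 4859 FPKM in DMSO and 1242 to 1955 FPKM after genistein, most of it LYZ (3219 to 4807 and 1149 to 1839 FPKM). CD14 was higher in each genistein library (0, 0 and 19.3 against 32, 74.4 and 23.9 FPKM) without passing. Biliary markers summed to 1671 to 2343 FPKM and 936.2 to 1496 FPKM. SOX9 and EPCAM fell, SPP1 (87.1 to 202 and 296 to 410 FPKM) and KRT19 (log2 change 0.59) did not pass, and CFTR was at 0. What these shifts contribute to other results was not tested. In bulk RNA, fewer cells of a kind and less RNA per cell cannot be told apart.

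Past an adjusted p of 0.05 (limma on log2(FPKM + 1), Benjamini-Hochberg adjustment over all tested genes), 1329 genes were higher and 1361 lower after genistein, 10.6% and 10.9% of the 12501 tested and 21.5% together. A change is called a rise or a fall here only past that threshold, every log2 change is on the log2(FPKM + 1) scale with its standard error (SE), and a fold is the ratio of the group means in FPKM. Among all tested genes the median log2 change was 0.05, among the genes that rose 1.61 and among those that fell -1.95. In all 2690 changed genes the 3 genistein libraries lay wholly above or wholly below the 3 DMSO libraries, as they did in 44.4% of all tested genes (23.6% above and 20.8% below). Median-of-ratios scaling of the values moves the median of all genes by -0.102 on the log2 scale, and no changed gene changes sign with it. That shift is small beside the median absolute log2 change of the changed genes (1.77), so their signs could hardly change. A group was listed at 0 in all 3 of its libraries for 78 of the genes that rose (DMSO) and 119 of those that fell (genistein). These genes met the filter of 1 FPKM in 2 libraries only through the other group.

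**Figure D1:**
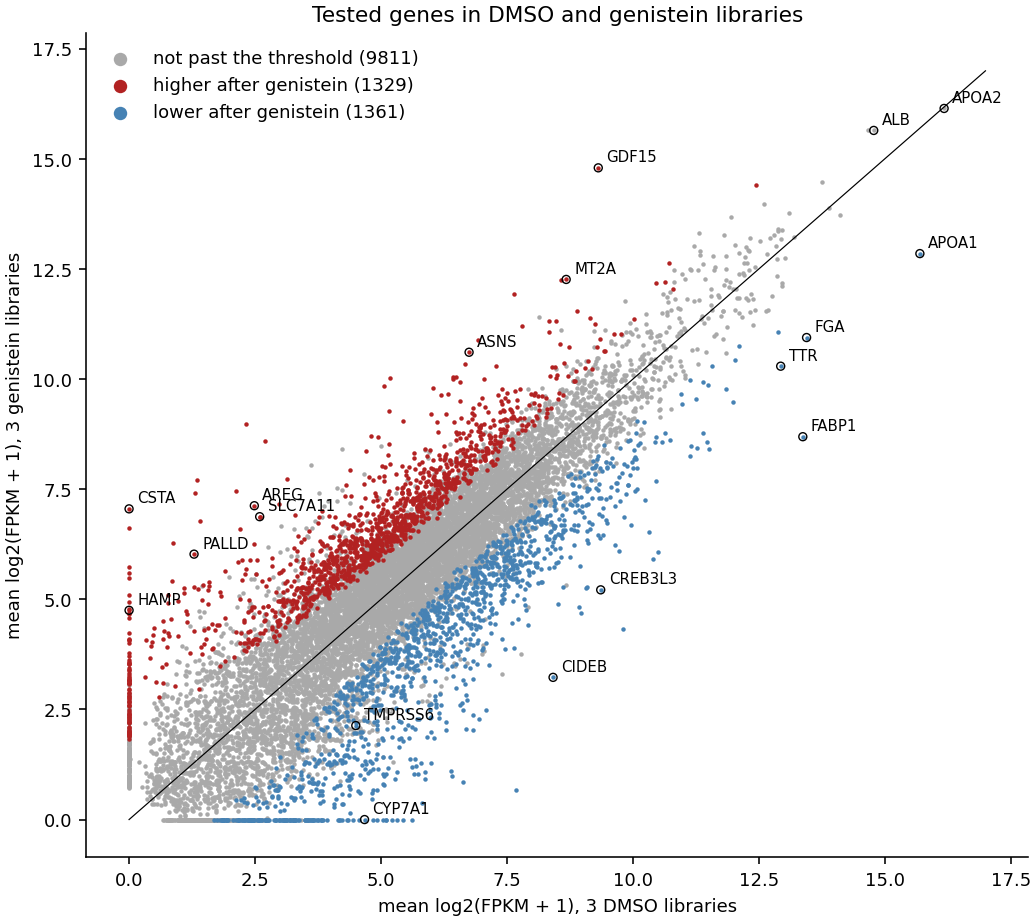
Mean log2(FPKM + 1) of each of the 12501 tested genes in the 3 DMSO libraries (horizontal) and the 3 genistein libraries (vertical), with equality as a line, the 1329 rises in red and the 1361 falls in blue. GDF15 and CSTA lie far above the line, FABP1, APOA1 and CIDEB far below it, and the abundant ALB and APOA2 close to it.

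The number of changed genes depended on which libraries were fitted. Leaving out DMSO 1, 2 or 3 gave 2652, 899 or 1778 changed genes, and leaving out genistein 1, 2 or 3 gave 1815, 1604 or 1138. In all, 791 genes (359 higher and 432 lower) passed in every such fit. Without both DMSO 1 and genistein 2, 1304 genes were higher and 1552 lower, and 1991 of the 2690 genes (74%) were among them. Of 324 changed genes covered by the naming rule, 154 passed in every fit without 1 library, and these are said below to have held. The other 170 lost the threshold in at least 1 such fit, 157 of them without DMSO 2, at adjusted p of at most 0.148. For a gene listed at 0 throughout a group, leaving out a library of that group cannot alter its log2 change.

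**Figure D2:**
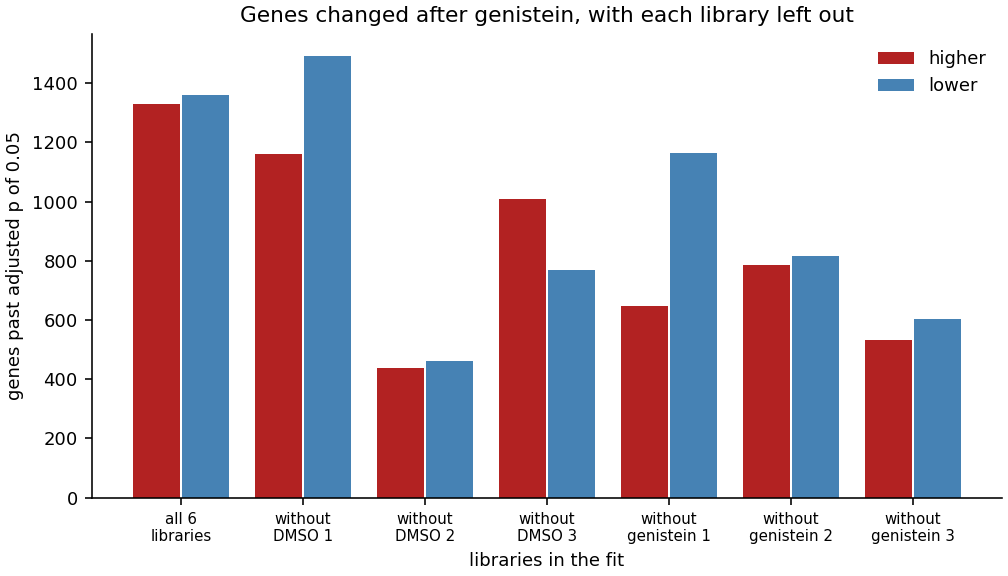
Number of genes higher (red) and lower (blue) after genistein past an adjusted p of 0.05, with all 6 libraries and with each library left out in turn. The bars fall from 1329 and 1361 with all libraries to 437 and 462 without DMSO 2.

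Of the 6 libraries, only the 3 of treated cells had hepcidin RNA listed above 0. The gene HAMP (ENSG00000105697, on hg18 chromosome 19 from 40465250 to 40467886) had 0 FPKM in DMSO 1, 2 and 3 and reached 22.2, 34.4 and 22.8 FPKM in genistein 1, 2 and 3. Its log2 change was 4.75 ± 0.41 (limma adjusted p = 0.00217), and it held in every fit without 1 library (4.56 to 4.86). Because DMSO was at 0, leaving out a DMSO library could not move the estimate from 4.75. Its size also rests on the pseudocount, with 8.02 for a pseudocount of 0.1 and 2.63 for a pseudocount of 5. An exact two-sided permutation test over the 6 libraries gave p = 0.1, the smallest value that 3 against 3 allows. The level remained modest, near that of NR1H4 in DMSO (25.8 to 27.5 FPKM) and far below the secreted protein ALB (45780.0 to 61916 FPKM after genistein).

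The promoter of HAMP is shown because the BMP and the interleukin-6 inputs meet in it. In the RefSeq window from 250 bases before to 50 bases after the start site (GRCh38.p14), it holds the letters GGCGCC, a core of BMP response elements, 105 bases before the start, and the letters TTCNNNGAA, the STAT motif, 93 bases before it. Both are in capitals in the stretch chr19:35282383-35282468, given on the plus strand, which is that of the gene:
HAMP: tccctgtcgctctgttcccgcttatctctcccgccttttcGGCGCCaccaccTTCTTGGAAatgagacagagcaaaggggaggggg
Searched on both strands, GGCGCC occurred in 30.9% of the 9411 promoters of tested genes with an entry and in 19% of all 27305 promoters, and TTCNNNGAA in 6.3% and 7.9%. A match of letters describes the window only.

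Of 22 tested regulators of hepcidin, 3 rose and 3 fell, 13.6% in each direction and so near the shares of all genes. The falls were large. TMPRSS6 encodes matriptase-2, a protease that cleaves hemojuvelin and restrains HAMP. It stood at 21.1, 19.8 and 24.2 FPKM in DMSO 1, 2 and 3 and 3.49, 4.04 and 2.75 FPKM in genistein 1, 2 and 3, a 6.34-fold fall (log2 change -2.37 ± 0.34, limma adjusted p = 0.00624). BMP4, which encodes a BMP ligand, went from 957, 855 and 629 FPKM in DMSO to 173, 156 and 95.6 FPKM (log2 change -2.54 ± 0.32, limma adjusted p = 0.00476). CREB3L3, the liver-specific factor CREBH that can bind the HAMP promoter, went from 986, 619 and 466 to 45.7, 50.7 and 20.3 FPKM (log2 change -4.15 ± 0.43, limma adjusted p = 0.00344). All 3 falls held in every fit without 1 library, and in each gene genistein 3 was the lowest of the 6 libraries.

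The 3 regulators that rose act at the receptors or on hemojuvelin. IL6R, the interleukin-6 receptor, rose from between 6.3 and 10.7 to between 34.9 and 45.3 FPKM (log2 change 2.09 ± 0.33, limma adjusted p = 0.00757) and held. ACVR1, the type I BMP receptor ALK2, stood at 20.2, 20.2 and 15.9 FPKM in DMSO 1, 2 and 3 and 52.9, 48.5 and 90.004 FPKM in genistein 1, 2 and 3 (log2 change 1.66 ± 0.33, limma adjusted p = 0.0151). It lost the threshold without DMSO 2 (limma adjusted p = 0.0566). FURIN, a protease that releases soluble hemojuvelin, rose from between 29.6 and 59.6 to between 86.6 and 123 FPKM (log2 change 1.32 ± 0.33, limma adjusted p = 0.0291). Its rise was lost without any library but DMSO 1 (limma adjusted p at most 0.0996). The count of 3 rises was thus 1 without DMSO 2, against 4 without DMSO 1 and genistein 2, while the 3 falls stayed at 3 in each of these fits.

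Most other components did not pass. The SMAD genes SMAD1, SMAD4 and SMAD5 had log2 changes of 1.20 ± 0.51, 1.02 ± 0.39 and 0.27 ± 0.32 (limma adjusted p = 0.129, 0.101 and 0.564). STAT3 (108 to 150.0 FPKM in DMSO, 117 to 162 after genistein) and HNF4A, a nuclear receptor that supports hepatocyte genes (208 to 296 and 201 to 345 FPKM), had overlapping groups. TFR2, the sensor of transferrin-bound iron, stood at 135, 75.3 and 107 FPKM in DMSO and 63.5, 53.9 and 47.4 FPKM after genistein without passing (log2 change -0.90 ± 0.30, limma adjusted p = 0.0671). HJV, which encodes hemojuvelin, was listed at 0 in all 6 libraries.

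Among 14 tested targets of BMP and SMAD signalling 5 rose and 1 fell, 35.7% and 7.1%, with a median log2 change of 0.45 (0.71 without genistein 3, 0.68 without DMSO 1, and -0.14 over the 9 members above 0 in all 6 libraries). Beside HAMP, the Notch and BMP responsive repressor HEY1 was listed at 0 in each DMSO library and reached 10.7, 7.81 and 10.3 FPKM after genistein (log2 change 3.40 ± 0.44, limma adjusted p = 0.00503). FST, the activin antagonist follistatin, rose from between 232 and 662 to between 1467 and 2146 FPKM (log2 change 2.00 ± 0.43, limma adjusted p = 0.0194). SNAI1, a repressor of epithelial genes, went from 0, 4.54 and 6.38 to 24.2, 21.3 and 16 FPKM (log2 change 2.62 ± 0.76, limma adjusted p = 0.0467). The homeobox gene MSX1 was the target that fell, from 327, 436 and 315 to 84.5, 72.2 and 28.6 FPKM (log2 change -2.65 ± 0.42, limma adjusted p = 0.00804).

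The classical read-outs of BMP signalling were not among the rises. ID1, an inhibitor of differentiation, was at 1912, 426 and 593 FPKM in DMSO and 993, 679 and 421 FPKM after genistein (log2 change -0.26 ± 0.60, limma adjusted p = 0.784), with overlapping groups in which DMSO 1 was the highest library. Its relatives ID2 and ID3 had log2 changes of -0.14 ± 0.27 and 0.85 ± 0.36 (limma adjusted p = 0.729 and 0.127). The inhibitory SMAD7 stood at 8.93, 12 and 16.4 and 8.65, 7.25 and 5.87 FPKM and SMAD6 at 0, 5.45 and 10.4 and 27.4, 16 and 14 FPKM, neither past the threshold (limma adjusted p = 0.23 and 0.112). HAMP, HEY1 and MSX1 held. FST lost the threshold without DMSO 2 or any genistein library (limma adjusted p at most 0.0633) and SNAI1 in the same fits (limma adjusted p at most 0.123), so that 3 rises were left there.

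**Figure D3:**
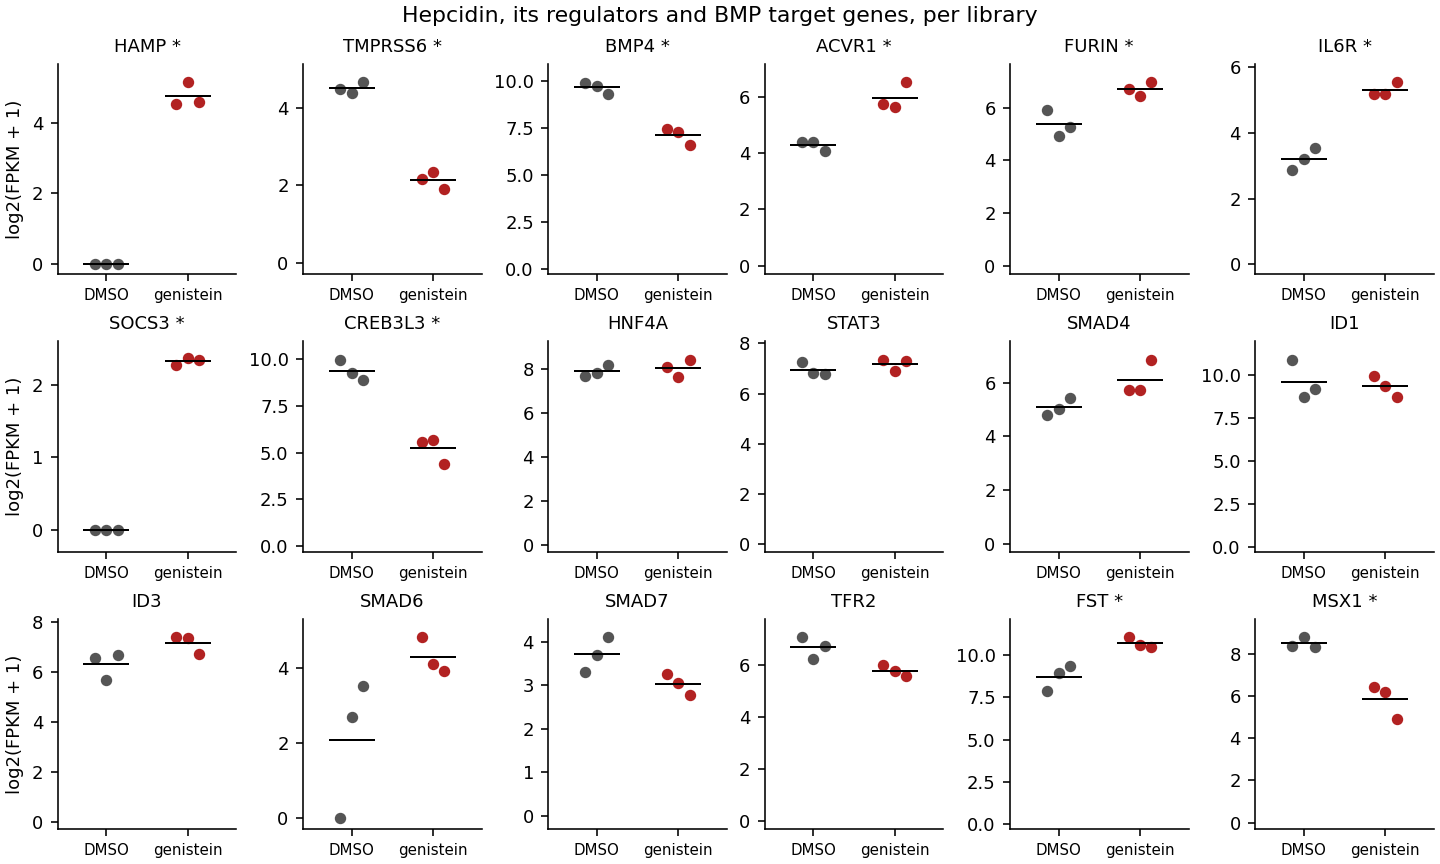
Level, log2(FPKM + 1), of HAMP, 10 genes of its regulation and 7 BMP target or iron-sensing genes in each of the 3 DMSO (grey) and 3 genistein (red) libraries, with group means as lines and an asterisk for an adjusted p of at most 0.05. HAMP and SOCS3 leave 0 only with genistein, TMPRSS6, BMP4, CREB3L3 and MSX1 are lower, and ID1, HNF4A and STAT3 overlap.

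Genes of the interleukin-6 and acute phase response moved in both directions, 3 higher and 2 lower of 17 tested. These shares, 17.6% and 11.8%, stand beside 10.6% and 10.9% of all tested genes. The median of -0.18 was -0.37 without DMSO 1, between -0.05 and -0.01 without DMSO 2 or genistein 3, and positive without DMSO 3 (0.07) or genistein 2 (0.08). SOCS3, the feedback inhibitor that STAT3 induces, was listed at 0 in each DMSO library and reached 3.83, 4.13 and 4.06 FPKM after genistein (log2 change 2.32 ± 0.47, limma adjusted p = 0.0166). SERPINA3, antichymotrypsin, rose from 38.1, 122 and 198 to 686, 307 and 393 FPKM, and HPX, hemopexin, which binds heme, from 0, 0 and 2.89 to 13.6, 10.5 and 7.1 FPKM (limma adjusted p = 0.0449 and 0.0246). SOCS3 lost the threshold without DMSO 2, genistein 1 or genistein 3 (limma adjusted p at most 0.0703), SERPINA3 without any library but DMSO 3 (limma adjusted p at most 0.127) and HPX without DMSO 2 or any genistein library (limma adjusted p at most 0.0862). None of the 3 rises passed without DMSO 2, genistein 1 or genistein 3, and 1 passed without genistein 2. FGA, the fibrinogen alpha chain, fell 5.69-fold, from 8737, 12204 and 13126 to 2414, 1972 and 1605 FPKM (log2 change -2.51 ± 0.41, limma adjusted p = 0.00842) and held. The beta and gamma chains FGB (-0.27 ± 0.31) and FGG (-0.78 ± 0.41) did not pass (limma adjusted p = 0.564 and 0.209). CEBPD, the other gene that fell, lost the threshold without DMSO 2 (limma adjusted p = 0.0569).

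Iron handling genes had 3 rises and no fall among 21 tested, a share of rises (14.3%) near the 10.6% of all tested genes. The heme synthesis enzyme gene ALAS1 rose from between 39 and 53.2 to between 109 and 124 FPKM (log2 change 1.24 ± 0.25, limma adjusted p = 0.015). TFRC, the transferrin receptor, rose from 57.2, 67.4 and 102 to 144, 148 and 291 FPKM (log2 change 1.31 ± 0.37, limma adjusted p = 0.0438). HPX was the third. ALAS1 lost the threshold without DMSO 2 or genistein 2 (limma adjusted p at most 0.0537), TFRC without any library but DMSO 3 (limma adjusted p at most 0.13) and HPX without DMSO 2 or any genistein library (limma adjusted p at most 0.0862). The count was 0 without DMSO 2 or genistein 2 and 1 without genistein 1, without genistein 3 or without DMSO 1 and genistein 2. SLC40A1, ferroportin, stood at 37.4, 51.8 and 46.4 and 40.1, 14.3 and 25.6 FPKM (limma adjusted p = 0.172). The ferritin light chain FTL, at 20042 to 30080.0 FPKM in DMSO and 39042 to 84761 FPKM after genistein did not pass although the groups did not overlap (limma adjusted p = 0.395). The heavy chain gene FTH1 carried a failed-estimate status in 4 of the 6 libraries.

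Most tested genes of the ATF4 stress response rose. ATF4, the transcription factor whose translation increases when amino acids are short or proteins misfold, drives most genes of this list, of which 17 of 23 tested (73.9%) rose and none fell, with a median log2 change of 2.52. ASNS, asparagine synthetase (hg18 chromosome 7, 97319379 to 97339732), stood at 81.2, 124 and 119.9 FPKM in DMSO 1, 2 and 3 and 1902, 1531 and 1310.1 FPKM in genistein 1, 2 and 3, a 14.6-fold rise (log2 change 3.86 ± 0.28, limma adjusted p = 0.00163). DDIT3, which encodes the stress factor CHOP, went from 102, 64.7 and 76.3 to 961, 886 and 609 FPKM (log2 change 3.32 ± 0.29, limma adjusted p = 0.00217). TRIB3, a pseudokinase induced by ATF4 and CHOP, went from 59.1, 91.3 and 152 to 1614, 595 and 982 FPKM (log2 change 3.37 ± 0.47, limma adjusted p = 0.00595). In each of these genes all 3 genistein libraries lay above all 3 DMSO libraries, as in every gene that rose and in 23.6% of all tested genes.

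PPP1R15A, the GADD34 subunit that reverses eIF2-alpha phosphorylation, rose 18.8-fold (from between 28.8 and 38.1 to between 391 and 958 FPKM), and NUPR1, a stress-induced chromatin protein, rose from between 71.4 and 103 to between 704 and 1372 FPKM. The hormone gene GDF15 (hg18 chromosome 19, 18357968 to 18360986) had the largest rise of the list, from 417, 759 and 811 to 32579, 48045 and 14751 FPKM, 48-fold (log2 change 5.48 ± 0.56, limma adjusted p = 0.00331), and spread widely among the genistein libraries. CHAC1, which degrades glutathione, was listed at 0 in each DMSO library and reached 4.65, 5.8 and 2.77 FPKM after genistein, with the threshold lost without DMSO 2, genistein 1 or genistein 3 (limma adjusted p at most 0.0665). ATF4 itself did not pass, at 876, 1791 and 1841 FPKM in DMSO and 2979, 1964 and 1419.8 FPKM after genistein (log2 change 0.51 ± 0.44, limma adjusted p = 0.432), and its groups overlapped. The count of 17 was between 12 (without genistein 3) and 16 in the fits without 1 library and 16 without DMSO 1 and genistein 2.

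Amino acid transporters had 8 rises and 2 falls among 20 tested. SLC7A11, the cystine importer, rose 22.9-fold, from 4.28, 4.71 and 6.28 to 125, 108 and 117 FPKM (log2 change 4.28 ± 0.28, limma adjusted p = 0.00163). Its partner SLC3A2, the heavy chain CD98, stood at 96.2, 163 and 233 FPKM in DMSO 1, 2 and 3 and 1485, 1226 and 1069 FPKM in genistein 1, 2 and 3 (log2 change 3.01 ± 0.36, limma adjusted p = 0.00433). It carried a failed-estimate status in 1 of the 6 libraries. SLC38A4, a sodium-coupled neutral transporter of hepatocytes, fell from 11.9, 8.32 and 6.71 FPKM to 0 in all 3 genistein libraries. The glycine transporter SLC6A9, with 1 failed-estimate status, fell from between 63.5 and 74 to between 24.4 and 29.96 FPKM with the threshold lost without DMSO 2 (limma adjusted p = 0.0518). The transporter counts were 5 higher without DMSO 2 or genistein 1, and the 2 falls were 1 without DMSO 2 and 3 without genistein 1.

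The 20 cytosolic aminoacyl-tRNA synthetases, which charge tRNAs for translation in the cytosol, had 10 rises and no fall (50.0%, median log2 change 1.20). The 16 tested mitochondrial enzymes had no rise and 2 falls (12.5%, median -0.05). That median was 0.09, 0.11 and 0.05 without DMSO 2, DMSO 3 or genistein 2 and -0.28, -0.20 and -0.11 without DMSO 1, genistein 1 or genistein 3. AARS1, alanyl-tRNA synthetase, went from 82.3, 159.6 and 169 to 1098, 993 and 986 FPKM (log2 change 2.96 ± 0.33, limma adjusted p = 0.00373). MARS1, for methionine, rose from 71.4, 135 and 153 to 647, 498 and 620.4 FPKM (log2 change 2.35 ± 0.34, limma adjusted p = 0.00607). GARS1, for glycine, which serves both compartments, did not pass (156 to 328 FPKM in DMSO, 205 to 457 after genistein). The cytosolic count was 6 without genistein 1 or genistein 3, and the falls of CARS2 and SARS2 were lost together without DMSO 2, DMSO 3, genistein 2 or genistein 3, with 1 fall left without DMSO 1. Whether the 2 compartments differ was not tested.

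In serine and one-carbon metabolism 6 of 22 tested genes rose and 4 fell (27.3% and 18.2%). MTHFD2, the mitochondrial folate dehydrogenase, stood at 65, 93.7 and 116 FPKM in DMSO 1, 2 and 3 and 1112, 834 and 1249 FPKM in genistein 1, 2 and 3 (log2 change 3.55 ± 0.30, limma adjusted p = 0.00217). Its partner MTHFD1L went from 11, 50.5 and 46.6 to 460.5, 415 and 367 FPKM (log2 change 3.74 ± 0.55, limma adjusted p = 0.00635). In the 3 steps from glycolysis to serine, PSAT1, the aminotransferase, rose from 215, 258 and 284 to 809, 691 and 949 FPKM (log2 change 1.69 ± 0.26, limma adjusted p = 0.00688). The first enzyme, PHGDH, did not pass (0.41 ± 0.31, limma adjusted p = 0.371), and the last, PSPH, fell from 224, 116 and 148 to 63.1, 42.8 and 61.7 FPKM (log2 change -1.49 ± 0.32, limma adjusted p = 0.0197). The fall of PSPH was lost without genistein 2 or genistein 3 (limma adjusted p at most 0.0627). MAT1A, which makes S-adenosylmethionine in adult liver, fell from 271, 159 and 151 to 48.9, 32.4 and 52.7 FPKM, and ALDH18A1, the first enzyme of proline synthesis, from 431, 444 and 511 to 139, 110.1 and 128 FPKM (limma adjusted p = 0.00803 and 0.00446). The 4 falls were 2 when genistein 2 or genistein 3 was left out.

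Promoter stretches of 5 of the genes that rose are shown because they share letters that ATF4 and its C/EBP partners bind, TGATGNAA on either strand. The sequences are RefSeq promoters (GRCh38.p14) read along the gene, with the match in capitals, 68, 191, 187, 129 and 198 bases before the start site in the order given, at chr7:97872451-97872494, chr1:212565198-212565241, chr16:70289668-70289711, chr6:150866339-150866382 and chr10:99430797-99430840:
ASNS: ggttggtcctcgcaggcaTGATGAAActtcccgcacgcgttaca
ATF3: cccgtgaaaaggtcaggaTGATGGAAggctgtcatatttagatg
AARS1: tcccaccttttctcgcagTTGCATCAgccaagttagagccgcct
MTHFD1L: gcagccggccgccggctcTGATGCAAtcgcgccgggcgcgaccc
GOT1: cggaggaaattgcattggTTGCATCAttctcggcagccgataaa
The letters occurred in 1.7% of the 9411 promoters of tested genes and in 3.7% of all 27305. They were in 3 of 15 promoters with an entry among the ATF4 genes that rose (20%), 4 of 7 among the cytosolic synthetases (57.1%), 3 of 6 among the transporters (50.0%) and 2 of 4 among the serine and one-carbon genes (50.0%). Over all tested members with an entry, they were in 4 of 20 (20%) for the ATF4 list and 6 of 16 (37.5%) for the cytosolic synthetases. For the transporters and the serine and one-carbon genes they were in 3 of 16 (18.8%) and 2 of 16 (12.5%). They were in 0 of 2 promoters of the transporters that fell and 0 of 3 of the one-carbon genes that fell. These are too few promoters to set beside a share of 1.7%.

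The targets of NRF2 supply glutathione and reduce reactive compounds. Of 25 tested 11 rose (44.0%) and none fell, and the median log2 change was 1.12. GCLC and GCLM, the catalytic and modifier subunits of the glutathione-synthesis ligase, went from 72.9, 64.9 and 74.3 to 412, 278 and 263 FPKM and from 8.85, 11.7 and 13.8 to 62, 53.8 and 42.4 FPKM (limma adjusted p = 0.00451 and 0.00642). TXNRD1, thioredoxin reductase, stood at 109.9, 106 and 122 FPKM in DMSO 1, 2 and 3 and 681, 456 and 874 FPKM in genistein 1, 2 and 3 (log2 change 2.51 ± 0.30, limma adjusted p = 0.00409). AKR1B10, an aldo-keto reductase, rose from between 10.6 and 23.2 to between 63 and 76.5 FPKM and OSGIN1, an oxidative stress inhibitor of growth, from between 48.2 and 97.8 to between 349 and 555 FPKM. AKR1C1 (11.5-fold) and AKR1C2 (6.94-fold) also rose, but are near-identical copies between which reads could be split.

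Some members of the list did not pass. NQO1, the quinone reductase that is among the best known NRF2 targets, was at 505, 583 and 613 FPKM in DMSO and 842, 501 and 534 FPKM after genistein (log2 change 0.11 ± 0.29, limma adjusted p = 0.818). HMOX1, heme oxygenase, was at 20.5, 53.1 and 127 and 38.2, 21.4 and 20.5 FPKM (limma adjusted p = 0.29). NFE2L2, which encodes NRF2, and KEAP1, its inhibitor, had log2 changes of 0.32 ± 0.39 and 0.34 ± 0.23 (limma adjusted p = 0.576 and 0.322). The NRF2 list had 8 or 9 rises in every fit without 1 library.

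Chaperone and degradation genes did not move as a block. Of 24 tested genes of the endoplasmic reticulum stress response 3 rose and 1 fell (12.5% and 4.2%, beside 10.6% and 10.9% of all tested genes). DNAJB9, a BiP co-chaperone, rose from 22.2, 22.7 and 29.4 to 127, 174 and 177 FPKM (log2 change 2.63 ± 0.27, limma adjusted p = 0.00313). HSPA5, the chaperone BiP, and XBP1 overlapped between groups (log2 changes 0.07 ± 0.37 and 0.31 ± 0.30, limma adjusted p = 0.914 and 0.475). Of 20 heat shock genes 1 rose and 4 fell. The small heat shock protein HSPB1 fell 6.54-fold (from between 375 and 546 to between 33.1 and 85.9 FPKM; limma adjusted p = 0.00624). HSP90AA1, the inducible HSP90, fell from between 1797 and 2974 to between 939 and 1094 FPKM with the threshold lost without any 1 library (limma adjusted p at most 0.134). The near-identical HSPA1A and HSPA1B, whose reads could be shared, fell from between 637 and 1943 to between 189.9 and 271 FPKM and from between 509.6 and 774 to between 202 and 265 FPKM. The former lost the threshold without genistein 2 or genistein 3 (limma adjusted p at most 0.0676) and the latter without DMSO 2 or genistein 2 (limma adjusted p at most 0.0544). HSPA9, the mitochondrial member of the same family, rose from between 182 and 506 to between 1136 and 1380.3 FPKM (log2 change 1.83 ± 0.42, limma adjusted p = 0.0236). Without 1 library the rises of the endoplasmic reticulum list were 1 to 4 (1 without genistein 3) and its fall, ERO1A, was lost without any library but DMSO 1 (limma adjusted p at most 0.141). The heat shock falls were 1 without genistein 2 and 2 without DMSO 2 or genistein 3, 2 genes rose without DMSO 3, and the rise of HSPA9 was lost without genistein 1, genistein 2 or genistein 3 (limma adjusted p at most 0.0715).

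Autophagy and lysosome genes rose in 8 of 32 tested (25%, median 0.70, and 0.45 without DMSO 1) and none fell. SQSTM1, the autophagy receptor p62, rose 10.1-fold, from 145, 225 and 333 to 2862, 2062 and 2196 FPKM (log2 change 3.40 ± 0.36, limma adjusted p = 0.00346), and held. The lysosomal proteases CTSL and CTSB rose from between 131 and 218 to between 465 and 720.5 FPKM and from between 481 and 768 to between 1496 and 2428 FPKM (limma adjusted p = 0.013 and 0.0192). CTSL lost the threshold without DMSO 2 (limma adjusted p = 0.0521) and CTSB without DMSO 2, genistein 1 or genistein 3 (limma adjusted p at most 0.0623). SQSTM1 was the only member that rose without DMSO 2, and 4 rose without genistein 1 or genistein 3. Of 35 proteasome genes 5 rose and 1 fell. The rises were 3 without DMSO 1 and 1 without DMSO 2 or any genistein library, and the fall was lost without DMSO 2, genistein 2 or genistein 3. Without DMSO 1 and genistein 2 together, 2 rose and none fell. PSMD14, which rose from between 153 and 248 to between 542 and 783 FPKM (limma adjusted p = 0.00873), was the member that held. That list's shares, 14.3% and 2.9%, were near those of all genes for rises and below for falls.

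**Figure D4:**
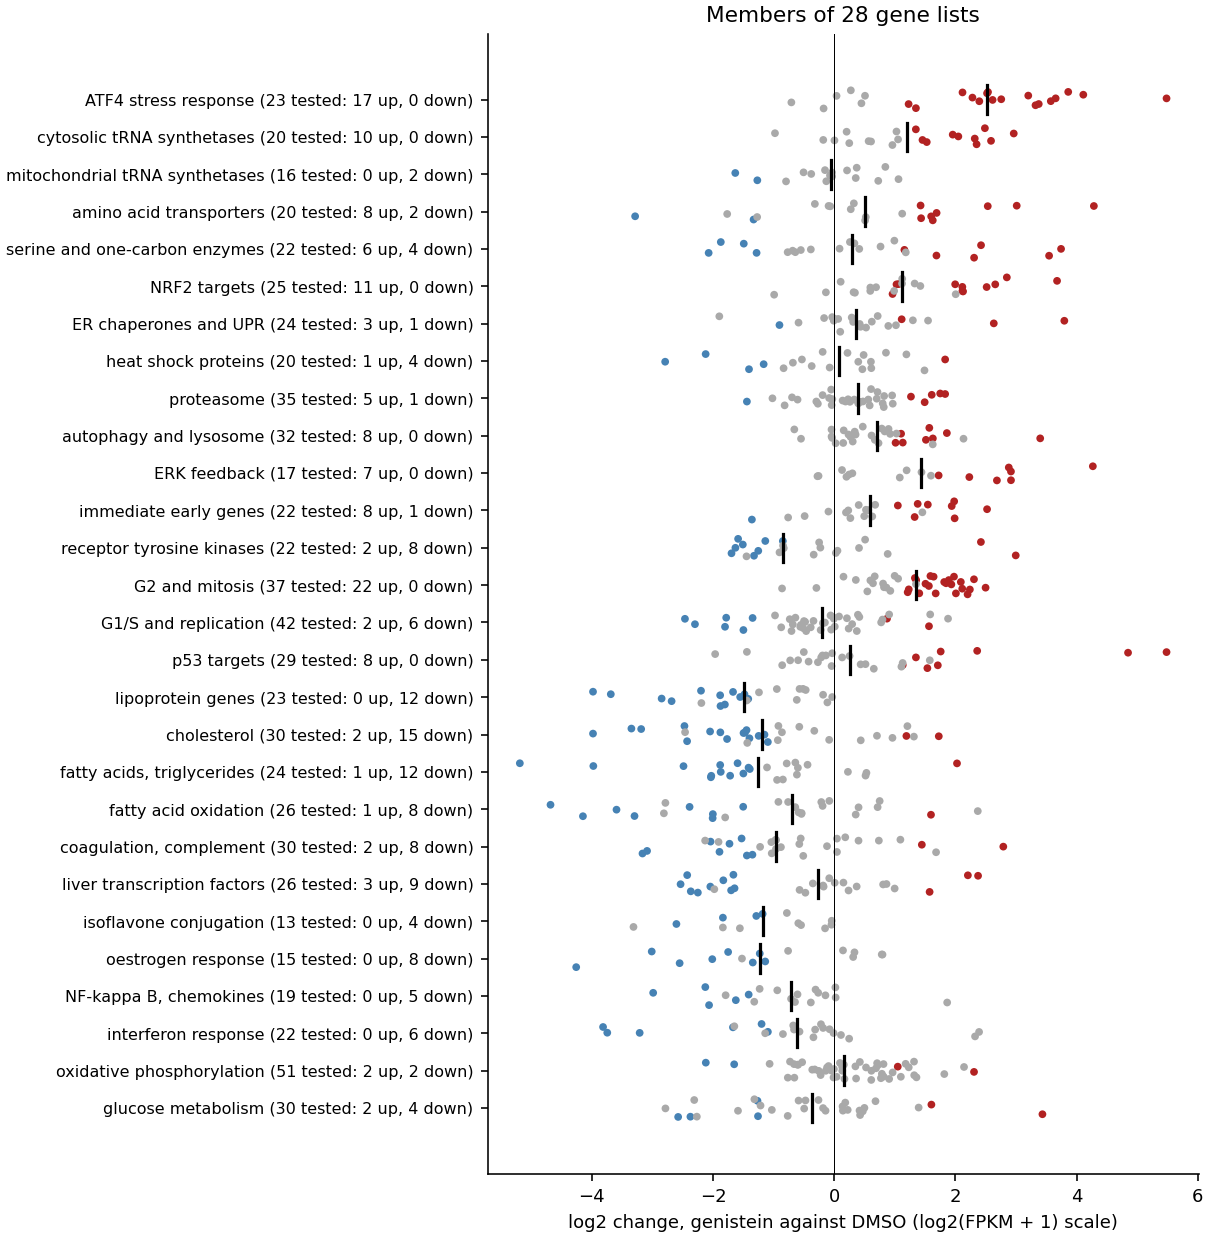
Log2 change on the log2(FPKM + 1) scale of each tested member of 28 gene lists (points), with the list median as a bar and members past an adjusted p of 0.05 in red (higher) or blue (lower). Medians run from 2.52 for the ATF4 list down to -1.48 for lipoprotein genes, and lists such as oxidative phosphorylation (0.17) lie near the 0.05 of all genes.

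Of 17 tested inhibitors and targets of the ERK pathway 7 rose (41.2%, median 1.44, and 0.78 without DMSO 1) and none fell. SPRY4, a Sprouty inhibitor of receptor signalling, stood at 36.4, 29.7 and 33.3 FPKM in DMSO 1, 2 and 3 and 293, 232 and 246 FPKM in genistein 1, 2 and 3 (log2 change 2.92 ± 0.23, limma adjusted p = 0.00179). DUSP5, a nuclear ERK phosphatase, rose 22.4-fold, from 8.61, 3.74 and 3.86 to 175, 101 and 86.8 FPKM (log2 change 4.27 ± 0.42, limma adjusted p = 0.00297). ERRFI1, which binds and inhibits the EGF receptor, rose from 182, 179 and 212 to 692, 631 and 577 FPKM (log2 change 1.72 ± 0.23, limma adjusted p = 0.00536). DUSP6, the cytoplasmic ERK phosphatase, did not pass (368 to 495 FPKM in DMSO, 322 to 396 after genistein, limma adjusted p = 0.436), nor did DUSP1 (80.3 to 83.4 and 54.1 to 79.5 FPKM). The count was 6 to 8 in the fits without 1 library.

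Among 22 immediate early genes 8 rose and 1 fell (36.4% and 4.5%). EGR1, the zinc finger factor that ERK induces, rose from 147, 185 and 171 to 417, 479 and 412 FPKM (log2 change 1.38 ± 0.23, limma adjusted p = 0.009). The small MAF factors MAFF and MAFG rose from between 10.6 and 15.6 to between 48.2 and 61.1 FPKM and from between 44.6 and 63 to between 142 and 167 FPKM (limma adjusted p = 0.00624 and 0.00792). FOS, JUN and MYC did not pass, with log2 changes of 0.40 ± 0.27, 0.49 ± 0.39 and 0.68 ± 0.32 (limma adjusted p = 0.303, 0.386 and 0.167). CCN2, a target of TGF-beta and of the YAP coactivator, fell from between 432 and 1042 to between 248 and 328 FPKM (log2 change -1.36 ± 0.37, limma adjusted p = 0.0382). Its fall was lost without any library but DMSO 1 (limma adjusted p at most 0.122). The 8 rises were 4 without DMSO 2, DMSO 3 or genistein 1 and 5 without genistein 2 or genistein 3.

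Some ligands of the EGF receptor family rose and another fell. AREG, amphiregulin, rose 27.1-fold, from 2.53, 3.97 and 9.03 to 170.4, 136 and 115 FPKM (log2 change 4.64 ± 0.43, limma adjusted p = 0.00255). EREG, epiregulin, was listed at 0 in each DMSO library and reached 7.4, 10.3 and 16.9 FPKM after genistein (log2 change 3.58 ± 0.48, limma adjusted p = 0.00555). Both held, while TGFA (12.2 to 21.1 FPKM in DMSO, 27.3 to 33.1 after genistein) and HBEGF (0, 4.27 and 2.89 and 10.4, 5.86 and 8.15 FPKM) did not pass (limma adjusted p = 0.0831 and 0.115). NRG4, a ligand of ERBB4, fell from 10.5, 16.3 and 9.56 to 4.67, 0 and 0 FPKM, with the threshold lost without any library but genistein 1 (limma adjusted p at most 0.121).

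Of 22 tested receptor tyrosine kinases 2 rose and 8 fell (9.1% and 36.4%), and the median log2 change was -0.84 (-0.43 without genistein 2). EPHA2, an ephrin receptor, rose from 33, 49.6 and 52.1 to 258, 238 and 225 FPKM (log2 change 2.42 ± 0.26, limma adjusted p = 0.00366). AXL, the receptor of GAS6, rose from 0, 2.85 and 2.77 to 19.9, 15.7 and 19.999 FPKM (limma adjusted p = 0.0158). EPHB4 fell from 169, 116 and 109 to 45.9, 38.5 and 38.8 FPKM (log2 change -1.63 ± 0.27, limma adjusted p = 0.00876) and held. INSR, the insulin receptor, fell from between 137 and 146 to between 44.9 and 69.5 FPKM, ERBB3 from between 517 and 745 to between 226 and 279 FPKM and ERBB2 from between 141 and 258 to between 68.9 and 89.7 FPKM (limma adjusted p = 0.0136, 0.0165 and 0.036). INSR lost the threshold without DMSO 2 (limma adjusted p = 0.0613), ERBB3 without DMSO 2 or genistein 2 (limma adjusted p at most 0.0707), ERBB2 without any library but DMSO 1 (limma adjusted p at most 0.107) and AXL without genistein 3 (limma adjusted p = 0.0639). EGFR itself did not pass, at 36.4, 16.7 and 12.4 FPKM in DMSO and 29.1, 22.3 and 35.5 FPKM after genistein (log2 change 0.51 ± 0.44, limma adjusted p = 0.43). MET, the HGF receptor, overlapped between groups (23 to 40.6 and 22.2 to 40.5 FPKM). Leaving out DMSO 2 or DMSO 3 gave 1 or 4 falls in place of 8. Leaving out genistein 1, 2 or 3 gave 4, 2 or 3, and leaving out DMSO 1 and genistein 2 together gave 6.

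Of 12 tested genes of the insulin-like growth factor axis 2 rose and 4 fell (16.7% and 33.3%), the binding proteins changing in both directions. The 4 falls were 1 without DMSO 2 and 2 without DMSO 1 or genistein 3, and the 2 rises were 1 without DMSO 2, genistein 1 or genistein 2. IGFBP3 was listed at 0 in each DMSO library and reached 64.2, 39 and 34 FPKM after genistein (log2 change 5.49 ± 0.41, limma adjusted p = 0.00163). IGFBP1, the binding protein of hepatocytes, rose from 1241, 1168 and 1964 to 5138, 5307 and 3723 FPKM (log2 change 1.72 ± 0.37, limma adjusted p = 0.0201). Its rise was lost without DMSO 2, genistein 1 or genistein 2 (limma adjusted p at most 0.0927). IGFBP7 went the other way, from 42.5, 10.2 and 11.6 FPKM to 0 in all genistein libraries (log2 change -4.19 ± 0.61, limma adjusted p = 0.00625). IGF2, the growth factor that these carcinoma cells express abundantly, did not pass (2305 to 4189 FPKM in DMSO, 3331 to 5999 after genistein, limma adjusted p = 0.421).

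Of 37 tested genes of G2 and mitosis 22 rose (59.5%) and none fell. Their median log2 change was 1.35. TTK, the MPS1 kinase of the spindle checkpoint, stood at 15, 18.3 and 21.8 FPKM in DMSO 1, 2 and 3 and 86.3, 98.3 and 145 FPKM in genistein 1, 2 and 3 (log2 change 2.5 ± 0.31, limma adjusted p = 0.00451). CENPE, a kinetochore motor, rose from 9.91, 12.1 and 11.7 to 48.6, 53.9 and 69.2 FPKM, and ECT2, the exchange factor that starts cytokinesis, from 12.2, 14.2 and 16.9 to 47.1, 75.8 and 116 FPKM (limma adjusted p = 0.00502 and 0.00887). AURKA, a centrosomal kinase, reached 461, 447 and 448 FPKM from 80.5, 138 and 159.8 FPKM (log2 change 1.89 ± 0.30, limma adjusted p = 0.00813). CCNB1, cyclin B1, reached 604, 502 and 521 FPKM from 131, 207 and 212 FPKM (log2 change 1.59 ± 0.28, limma adjusted p = 0.0102). DMSO 1 was the lowest library for all 5 of these genes. PLK1 rose from between 117 and 141 to between 276 and 348 FPKM and MKI67, the proliferation marker, from between 19.96 and 32.5 to between 59.7 and 74.5 FPKM. PLK1 lost the threshold without DMSO 2 (limma adjusted p = 0.0638) and MKI67 without DMSO 2 or any genistein library (limma adjusted p at most 0.0746). The count was 13 without DMSO 2 or genistein 3 and 24, with 1 fall, without DMSO 1 and genistein 2.

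Promoters of 4 of these genes are shown for the letters TTTGAA, the core of the cell cycle homology region (CHR) bound by the DREAM and MuvB complexes, in capitals (TTCAAA where the match is on the other strand). They come from RefSeq (GRCh38.p14), are read along the gene, and lie at chr3:172750593-172750634, chr5:163460586-163460627, chr16:23678842-23678883 and chr1:43358785-43358826, with the first match 115, 28, 29 and 178 bases before the start site:
ECT2: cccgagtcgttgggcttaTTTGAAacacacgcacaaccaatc
HMMR: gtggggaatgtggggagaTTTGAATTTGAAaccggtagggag
PLK1: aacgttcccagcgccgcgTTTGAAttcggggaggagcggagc
CDC20: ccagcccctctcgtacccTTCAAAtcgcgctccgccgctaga
TTTGAA was in 19 of 30 promoters with an entry among the tested mitosis genes (63.3%), in 11 of the 19 that rose (57.9%), in 2 of 36 promoters of genes of the G1/S transition and replication (5.6%), and in 9.6% of the 9411 promoters of tested genes (15.4% of all). The letters CCAAT, bound by NF-Y, were in 24 of the 30 mitosis promoters (80%) and in 14 of the 19 that rose (73.7%). They were also in 20 of the 36 promoters of G1/S and replication genes (55.6%), against 37.0% of tested and 35.7% of all promoters. Each search covered both strands. TTTGAA also occurred outside the stretches shown, in CDC20 65 bases before the start site and in ECT2 34 bases after it.

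The genes of the G1/S transition and of replication had 2 rises and 6 falls among 42 tested (4.8% and 14.3%, median log2 change -0.21, at -0.37 and -0.33 without DMSO 1 or genistein 3 and -0.09 and -0.10 without DMSO 3 or genistein 2). GINS2, a subunit of the replicative helicase, fell from 150.4, 203 and 172 to 68.4, 47.1 and 38.2 FPKM (log2 change -1.78 ± 0.29, limma adjusted p = 0.00873) and held. CCNE1, cyclin E1, fell from 57.8, 95.4 and 88.4 to 35.1, 24.9 and 11.8 FPKM, and CCNE2, cyclin E2, from 3.48, 6.95 and 3.71 FPKM to 0 in all genistein libraries (limma adjusted p = 0.0275 and 0.0172). CCNE1 lost the threshold without DMSO 2, DMSO 3, genistein 2 or genistein 3 (limma adjusted p at most 0.0998) and CCNE2 without DMSO 2 or genistein 3 (limma adjusted p at most 0.082). RRM2, the inducible subunit of ribonucleotide reductase, fell from between 161 and 355 to between 62 and 126 FPKM, a fall lost without DMSO 2, DMSO 3, genistein 2 or genistein 3 (limma adjusted p at most 0.113). PCNA, the replication clamp, and MCM2, a helicase subunit, did not pass (-0.51 ± 0.26 and -0.46 ± 0.37, limma adjusted p = 0.194 and 0.386). Neither did CCND1, cyclin D1, although its groups did not overlap (84 to 212 FPKM in DMSO, 219 to 301 after genistein, limma adjusted p = 0.181). The 6 falls were 1 without DMSO 2 or genistein 3, 2 without DMSO 3 and 4 without genistein 2, and the 2 rises were 1 without DMSO 1 and 0 without any other library.

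Genistein is known to trap topoisomerase II on DNA, and the genes of topoisomerases, break repair and p53 were therefore read. TOP2A and TOP2B, the genes of both topoisomerase II enzymes, did not pass (195, 339 and 203 and 32.6, 88.5 and 77.1 FPKM in DMSO, 317, 485 and 601 and 116, 137 and 178 FPKM after genistein, limma adjusted p = 0.0983 and 0.0749). TOP1 rose from between 115 and 166 to between 251 and 328 FPKM (log2 change 0.95 ± 0.26, limma adjusted p = 0.0385), with the threshold lost without any 1 library (limma adjusted p at most 0.12). H2AX, the histone variant phosphorylated at DNA breaks, fell from 640.4, 974 and 1013 to 205, 175 and 92 FPKM (log2 change -2.52 ± 0.37, limma adjusted p = 0.00636) and held. That list had 3 rises and 1 fall of 23 tested, 13% and 4.3%, and the 3 rises were 0 without DMSO 2, DMSO 3, genistein 1 or genistein 3 and 1 without DMSO 1.

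Of 29 tested p53 target genes 8 rose (27.6%) and none fell, and the median log2 change was 0.25. It was 0.07 without DMSO 1 and 0.38, 0.42, 0.39 and 0.40 without DMSO 2, DMSO 3, genistein 2 or genistein 3. Without DMSO 1 and genistein 2 together it was -0.0. The members that rose include GDF15 and SESN2, the latter with the threshold lost without any library but DMSO 3 (limma adjusted p at most 0.119). Whether p53 drove any of these rises was not tested. PLK3, a stress-responsive polo-like kinase, rose from 15.8, 23.8 and 32.3 to 158, 126 and 92 FPKM, and TNFRSF10B, the death receptor DR5, from 129, 149 and 179.6 to 506, 473 and 513 FPKM (limma adjusted p = 0.00656 and 0.0058). CDKN1A, the cell cycle inhibitor p21, and MDM2, the ligase that degrades p53, did not pass, at 45.3, 114 and 120.0 and 17.8, 44.3 and 40.9 FPKM in DMSO against 226, 149 and 189 and 69.98, 38.4 and 132 FPKM (limma adjusted p = 0.0956 and 0.165). The 8 rises were 4 without DMSO 2, 5 without genistein 2 and 6 without DMSO 1 and genistein 2 together.

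In each of 4 lists of lipid genes between 30.8% and 52.2% of the tested members fell. In cholesterol synthesis and uptake, 15 of 30 tested genes fell and 2 rose (50.0% and 6.7%, median log2 change -1.20). SQLE, squalene epoxidase, stood at 738, 306 and 268 FPKM in DMSO 1, 2 and 3 and 36.4, 40.8 and 36.1 FPKM in genistein 1, 2 and 3, an 11.6-fold fall (log2 change -3.35 ± 0.40, limma adjusted p = 0.00422). TM7SF2, a sterol reductase, fell from 537, 614 and 366 to 68.7, 56.3 and 39.3 FPKM (log2 change -3.19 ± 0.32, limma adjusted p = 0.00297). In SQLE the DMSO libraries themselves differed, DMSO 1 being the highest. Both genes held.

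SREBF2, the gene of the sterol-sensing factor SREBP2, did not pass (0.44 ± 0.29, limma adjusted p = 0.304). SREBF1 rose from between 15.5 and 28.7 to between 39.5 and 61.7 FPKM, with the threshold lost without any 1 library (limma adjusted p at most 0.138). The sterol response letters TCACNCCAC, searched on both strands, were in none of the 10 promoters with an entry among the cholesterol genes that fell. They were in 1 of 23 (4.3%) over all tested members with an entry, that of SREBF2, and in 1.2% of promoters of tested genes (1.1% of all). These are too few promoters to set beside a share of 1.2%. The 15 falls were 7 without DMSO 2, 9 without genistein 2, 10 without DMSO 3 and 16 without DMSO 1 and genistein 2, and the 2 rises were 0 without DMSO 1, DMSO 2, genistein 1 or genistein 3 and 1 without genistein 2.

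Fatty acid and triglyceride genes fell in 12 of 24 tested (50.0%, median -1.25) and 1 rose (4.2%). CIDEB, a protein of lipid droplets and of the assembly of very low density lipoprotein, fell 39.7-fold, from 582, 289 and 235 to 15.3, 7.86 and 4.72 FPKM (log2 change -5.19 ± 0.49, limma adjusted p = 0.00258). SCD, the stearoyl desaturase, fell from 371, 661 and 797 to 186, 144 and 144 FPKM (log2 change -1.88 ± 0.34, limma adjusted p = 0.0113). FASN, fatty acid synthase, fell from 468, 270.2 and 197 to 115, 101 and 117 FPKM (log2 change -1.39 ± 0.34, limma adjusted p = 0.0292). MLXIPL, the carbohydrate-sensing factor ChREBP, and DGAT1, which makes triglycerides, fell from between 958 and 1256 to between 189 and 392 FPKM and from between 359.5 and 433 to between 54.7 and 147 FPKM (limma adjusted p = 0.0115 and 0.0125). PNPLA3, a lipid droplet protein, went from 23.6, 22 and 23.4 to 2.53, 0 and 0 FPKM, and LPIN2, a phosphatidate phosphatase, rose from between 13.1 and 29.4 to between 71.6 and 96.3 FPKM (limma adjusted p = 0.00625 and 0.0103). SCD lost the threshold without DMSO 2 (limma adjusted p = 0.0541) and FASN without DMSO 2 or any genistein library (limma adjusted p at most 0.0881). The 12 falls were 5 without DMSO 2, 6 without genistein 3 and 7 without genistein 2.

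In fatty acid oxidation and ketogenesis 8 of 26 tested genes fell and 1 rose (30.8% and 3.8%, median -0.70). FABP1, the liver fatty acid binding protein (hg18 chromosome 2, 88203625 to 88208693), fell 25.4-fold, from 8564, 12192 and 11475 to 517, 445 and 306 FPKM (log2 change -4.68 ± 0.35, limma adjusted p = 0.00163). SLC25A20, the carnitine carrier of mitochondria, fell from 44.5, 56 and 58.3 to 13.8, 13 and 10.5 FPKM (log2 change -2.0 ± 0.29, limma adjusted p = 0.00607). PPARA, the receptor that drives these genes, and CPT1A, the gate of mitochondrial import, did not pass (-0.64 ± 0.40 and 0.72 ± 0.43, limma adjusted p = 0.274 and 0.265). PPARGC1A, the coactivator of PPARA, rose from between 14 and 21 to between 45.2 and 79.7 FPKM with the threshold lost without DMSO 2 or genistein 3 (limma adjusted p at most 0.0601). The 8 falls were 4 without DMSO 2 or genistein 3, 5 without DMSO 3 and 11 without DMSO 1 and genistein 2, and 2 genes rose without genistein 2.

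Lipoprotein genes had 12 falls and no rise among 23 tested (52.2%, median -1.48, the lowest median of the 28 lists plotted). APOA1, the main protein of high density lipoprotein and second to APOA2 in mean FPKM in DMSO (hg18 chromosome 11, 116211677 to 116213571), fell 6.49-fold, from 58896, 50548 and 50517 to 12742, 7932 and 3984 FPKM (log2 change -2.85 ± 0.69, limma adjusted p = 0.0281). LCAT, which esterifies cholesterol on that particle, fell from 942, 676 and 567 to 154, 103 and 83.7 FPKM, and LIPC, hepatic lipase, from 195, 226 and 146 to 53.8, 49.3 and 46.5 FPKM (limma adjusted p = 0.00435 and 0.0057). MTTP, which loads lipid onto apolipoprotein B, fell from between 69.95 and 89.4 to between 21.3 and 47.8 FPKM, and APOC3 from between 1027 and 1697 to between 275 and 487 FPKM (limma adjusted p = 0.0298 and 0.0114). APOA2, the most abundant transcript of all 6 libraries, APOB and APOE did not pass (log2 changes -0.03 ± 0.99, -0.51 ± 0.33 and -0.47 ± 0.51, limma adjusted p = 0.986, 0.29 and 0.53). APOA1 lost the threshold without DMSO 2, DMSO 3, genistein 2 or genistein 3 (limma adjusted p at most 0.0918), MTTP without any library but genistein 3 (limma adjusted p at most 0.0844) and APOC3 without DMSO 2 (limma adjusted p = 0.0545). The 12 falls were 4 without DMSO 2, 6 without DMSO 3 or genistein 2 and 10 without DMSO 1 and genistein 2.

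RNA of 2 defining enzymes of bile acid synthesis fell. CYP7A1, the rate-limiting enzyme, stood at 21.6, 27.1 and 25.2 FPKM in DMSO and was listed at 0 in all genistein libraries (log2 change -4.67 ± 0.39, limma adjusted p = 0.00192). CYP8B1, which directs synthesis to cholic acid, stood at 17.6, 24.7 and 16.9 FPKM in DMSO and was likewise listed at 0 (log2 change -4.35 ± 0.41, limma adjusted p = 0.00258). CYP27A1, of the alternative pathway, did not pass (634 to 810.0 FPKM in DMSO, 295 to 530.2 after genistein, limma adjusted p = 0.0636). NR1H4, the bile acid receptor FXR, rose from 25.8, 27.2 and 27.5 to 92.3, 64.3 and 92.2 FPKM (log2 change 1.57 ± 0.26, limma adjusted p = 0.00921). Its target NR0B2, the repressor SHP, overlapped between groups (462 to 598 and 531 to 766 FPKM). CYP7A1, CYP8B1 and NR1H4 held, and the list had 2 rises and 4 falls of 14 tested (14.3% and 28.6%). The 4 falls were 2 without DMSO 2 or DMSO 3, and BAAT, the other rise, was lost without any library but DMSO 1 (limma adjusted p at most 0.111).

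**Figure D5:**
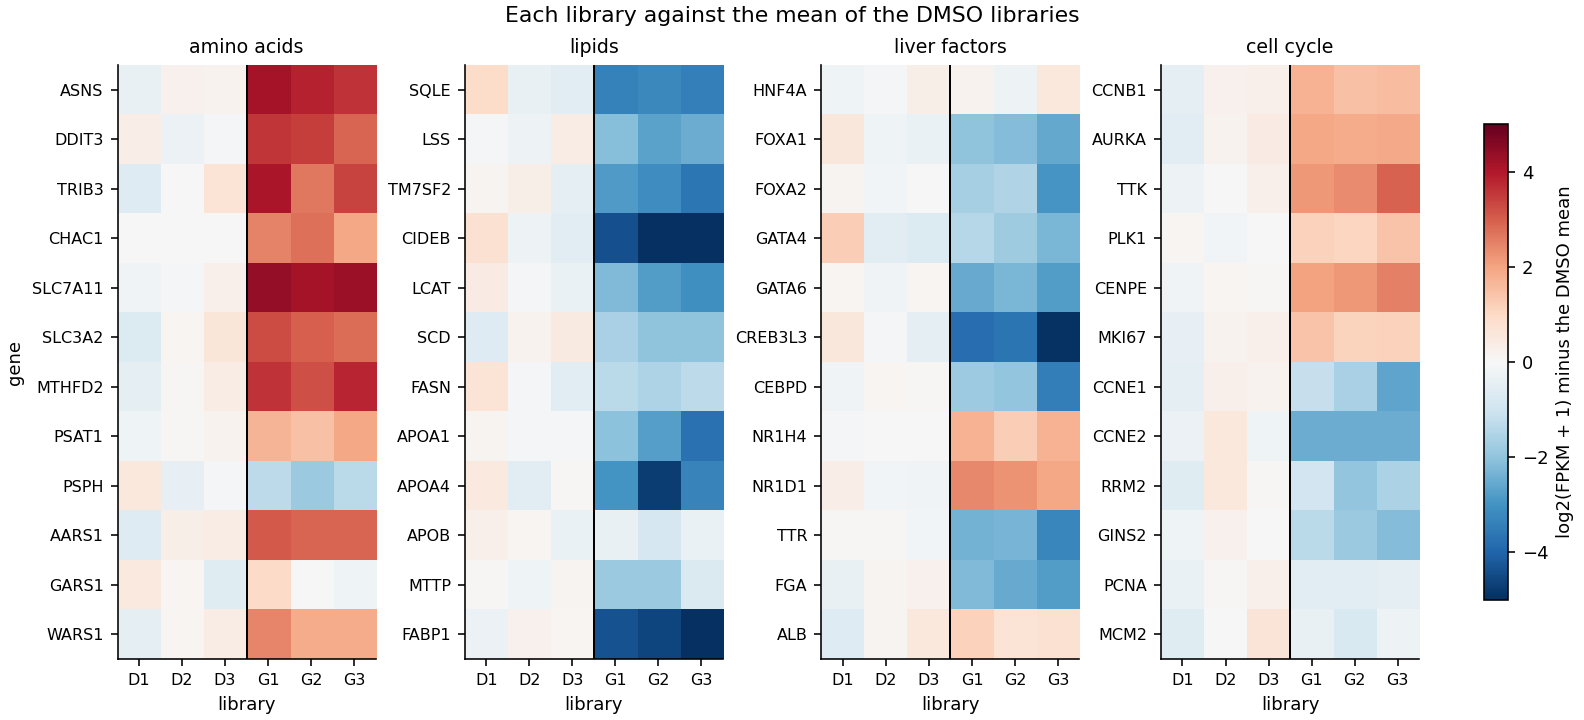
Level of 48 genes in each of the 6 libraries (D, DMSO; G, genistein), as log2(FPKM + 1) minus the mean of the 3 DMSO libraries, red higher and blue lower. ASNS, DDIT3 and SLC7A11 are red and SQLE, CIDEB, APOA1 and FABP1 blue in all 3 genistein libraries, while APOB, HNF4A and PCNA stay pale.

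Among 26 tested transcription factors of the liver 3 rose and 9 fell (11.5% and 34.6%). The pioneer factors FOXA1 and FOXA2, which open hepatocyte enhancers, fell from 356, 208 and 192 to 59.2, 52.4 and 40.6 FPKM and from 385, 314 and 343 to 107, 123 and 43.4 FPKM (limma adjusted p = 0.00607 and 0.0155). GATA6, an endodermal factor, fell from 19.1, 15.6 and 19.1 to 2.31, 2.87 and 1.68 FPKM (log2 change -2.54 ± 0.37, limma adjusted p = 0.00624). CEBPD, a C/EBP factor of the acute phase, fell from 129, 156 and 150.4 to 40.3, 35.8 and 12.1 FPKM (log2 change -2.43 ± 0.45, limma adjusted p = 0.0128). NR1D1, the clock repressor REV-ERB alpha, rose from 49.3, 35.1 and 34.2 to 211, 191 and 153 FPKM (log2 change 2.21 ± 0.27, limma adjusted p = 0.00433). HNF4A, RXRA and FOXA3 did not pass. FOXA1, GATA6 and NR1D1 held, FOXA2 lost the threshold without DMSO 2 (limma adjusted p = 0.0567) and CEBPD without DMSO 2 (limma adjusted p = 0.0569). The 9 falls were 3 without DMSO 2 and 8 without DMSO 1 and genistein 2.

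Some hepatocyte products fell and others did not pass. ALB, serum albumin, stood at 17949, 30831 and 40448 FPKM in DMSO 1, 2 and 3 and 61916, 45780.0 and 47636 FPKM in genistein 1, 2 and 3 and did not pass (log2 change 0.86 ± 0.80, limma adjusted p = 0.458), although the groups did not overlap. TTR, transthyretin, fell 6-fold, from 8187, 8195 and 7162 to 1523, 1576 and 822 FPKM (log2 change -2.64 ± 0.40, limma adjusted p = 0.00673), and held. AFP, alpha-fetoprotein, SERPINA1, alpha-1-antitrypsin, and TF, transferrin, had log2 changes of 0.03 ± 0.52, -0.02 ± 0.55 and 0.17 ± 0.57 and did not pass (limma adjusted p = 0.978, 0.988 and 0.856). CDH1, E-cadherin, fell from 36.2, 30.8 and 29.8 to 6.74, 6.55 and 9.27 FPKM (log2 change -1.97 ± 0.31, limma adjusted p = 0.00776). EPCAM fell from between 343 and 743 to between 118 and 191 FPKM, with the threshold lost without DMSO 2, genistein 2 or genistein 3 (limma adjusted p at most 0.0745). VIM, a mesenchymal filament gene, was listed at 0 in all libraries. Of 27 tested identity genes 1 rose and 6 fell, shares of 3.7% and 22.2%, and the falls were 2 without DMSO 2 and 3 without genistein 3. TAT, tyrosine aminotransferase, was the rise and lost the threshold without DMSO 2, genistein 1 or genistein 3 (limma adjusted p at most 0.0769).

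Coagulation and complement genes had 2 rises and 8 falls among 30 tested (6.7% and 26.7%, median -0.96). PROZ, protein Z, fell from 49.6, 55.5 and 54.4 to 17.8, 8.98 and 11.1 FPKM, and MASP2, a protease of the lectin pathway, from 199.9, 154 and 80.7 to 16.6, 25.4 and 7.92 FPKM (limma adjusted p = 0.00816 and 0.00828). Its relative MASP1 rose from 0, 4.04 and 5 to 18.1, 20.4 and 23.4 FPKM (limma adjusted p = 0.0314), with the threshold lost without DMSO 2 or any genistein library (limma adjusted p at most 0.102). Prothrombin, F2, and complement C3 did not pass (-0.12 ± 0.28 and -0.88 ± 0.39, limma adjusted p = 0.783 and 0.141). The 8 falls were 2 without DMSO 2, 4 without genistein 2 or genistein 3 and 5 without DMSO 3, and the 2 rises were 0 without DMSO 2 or any genistein library.

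In the enzyme families that glucuronidate, sulfate and methylate isoflavones, none of 13 tested genes rose and 4 fell (30.8%, median -1.18). UGT1A1 and UGT1A9 had no entry, and whether the 4 enzymes act on genistein was not tested. UGT2B10 fell from 701, 341 and 228 to 52.7, 58.2 and 75.8 FPKM (log2 change -2.60 ± 0.42, limma adjusted p = 0.00835) and held. SULT2A1, a sulfotransferase of steroids, fell from between 154 and 226 to between 58.9 and 107 FPKM, and UGT2B7 from between 74.6 and 128 to between 33 and 60.8 FPKM (limma adjusted p = 0.0255 and 0.0454). SULT2A1 lost the threshold without any library but genistein 1 (limma adjusted p at most 0.079) and UGT2B7 without any library but genistein 1 (limma adjusted p at most 0.124). SULT1A2 also fell, with the threshold lost without DMSO 1, DMSO 2, genistein 2 or genistein 3 (limma adjusted p at most 0.092), but is near-identical to SULT1A1, which did not pass, so that reads could be split between them. UGT2B10 was the fall that was left without DMSO 1, DMSO 2, genistein 2 or genistein 3. There were 2 falls without DMSO 3, 6 without genistein 1 and 1 without DMSO 1 and genistein 2 together.

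Drug metabolism genes had 5 rises and 4 falls among 18 tested (27.8% and 22.2%). CYP1A1, the classical target of the aryl hydrocarbon receptor, went from 0, 0 and 3.95 to 37, 27.4 and 25 FPKM (log2 change 4.16 ± 0.68, limma adjusted p = 0.00854) and held. AHR itself did not pass (19 to 20.6 FPKM in DMSO, 19 to 31.1 after genistein). AHRR, its repressor, fell from between 237 and 265 to between 88.2 and 166 FPKM with the threshold lost without any library but genistein 1 (limma adjusted p at most 0.101). ABCB1, the efflux pump P-glycoprotein, rose from 51.2, 64.3 and 53.9 to 230.0, 199 and 232 FPKM (log2 change 1.95 ± 0.23, limma adjusted p = 0.00409). CYP2S1 rose from 5.77, 2.9 and 3.57 to 48.7, 57.2 and 36.7 FPKM (log2 change 3.27 ± 0.37, limma adjusted p = 0.00385). NR1I2, the xenobiotic receptor PXR, fell from between 42.3 and 50.7 to between 11.3 and 17.8 FPKM, and CYP3A5 went from 9.59, 10.1 and 6.38 FPKM to 0 in all genistein libraries (limma adjusted p = 0.0115 and 0.00602), while CYP3A4 was listed at 0 throughout. NR1I2 lost the threshold without DMSO 2 (limma adjusted p = 0.0545). The rises were 3 without DMSO 2, genistein 1 or genistein 2, and the falls 1 without DMSO 2 and 2 without DMSO 3 or genistein 3.

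The nuclear oestrogen receptor genes had no value above 0. ESR1 and ESR2, the genes of oestrogen receptors alpha and beta, and PGR, the progesterone receptor, were listed at 0 in all 6 libraries. Of 15 tested genes that oestrogen is known to regulate in liver or breast cells none rose and 8 fell (53.3%, median -1.23). GPER1, a G protein-coupled receptor of oestrogen, fell from 133, 78.8 and 93.7 to 14.7, 11.5 and 8.81 FPKM (log2 change -3.01 ± 0.33, limma adjusted p = 0.00366). TFF3, a trefoil factor, fell from 109, 105 and 139 to 23.2, 22.1 and 13.6 FPKM (log2 change -2.55 ± 0.30, limma adjusted p = 0.00421). The plasma carriers SERPINA6 and SHBG, of cortisol and of sex steroids, fell from between 612 and 1145 to between 219 and 303 FPKM and from between 50.3 and 94.2 to between 26.3 and 37.3 FPKM (limma adjusted p = 0.0124 and 0.0442). AGT, angiotensinogen, fell from between 3931 and 4780.5 to between 1561 and 1903 FPKM (limma adjusted p = 0.0276). GPER1 and TFF3 held and were the falls left without DMSO 2. SERPINA6 lost the threshold without DMSO 2 (limma adjusted p = 0.0566), SHBG without any library but DMSO 1 (limma adjusted p at most 0.148) and AGT without any library but DMSO 1 (limma adjusted p at most 0.104). The 8 falls were 4 without genistein 1 or genistein 3 and 5 without DMSO 3 or genistein 2, and 1 gene rose without DMSO 3.

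Inflammatory genes were lower or did not pass. Of 19 tested NF-kappa B genes and chemokines 5 fell and none rose (26.3%, median -0.71, and -0.41 without genistein 2). TNFAIP3, the A20 inhibitor of NF-kappa B, fell from 101, 127 and 109.7 to 28.1, 17.9 and 30.2 FPKM (log2 change -2.13 ± 0.29, limma adjusted p = 0.0057). NFKBIA, the inhibitor I kappa B alpha, fell from 764, 514 and 737 to 233, 133 and 126 FPKM (log2 change -2.07 ± 0.33, limma adjusted p = 0.00776). CXCL8, interleukin-8, went from 5.58, 7.83 and 7.59 FPKM to 0 in all genistein libraries (log2 change -2.99 ± 0.45, limma adjusted p = 0.00705). NFKB1 and RELA, the genes of p50 and p65, did not pass (limma adjusted p = 0.229 and 0.559). The 5 falls were 3 without DMSO 2, DMSO 3 or genistein 3.

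Of 22 tested interferon-induced genes 6 fell and none rose (27.3%, median -0.62, and -0.35 without DMSO 3). IFI6 fell from 222, 240.4 and 146 to 18.5, 18.2 and 7.75 FPKM (log2 change -3.75 ± 0.40, limma adjusted p = 0.00346). IFIT1 and IFIT3 went from 11.7, 11.3 and 16.8 and from 8.88, 8 and 7.93 FPKM to 0 in all genistein libraries (limma adjusted p = 0.00385 and 0.0057). These 3 held, and without DMSO 2, DMSO 3, genistein 2 or genistein 3 they were the 3 falls left, with 1 rise without DMSO 3. ISG15 did not pass (2.32 ± 1.87, limma adjusted p = 0.396) and was at 0 in DMSO 1 alone (0, 142 and 212 FPKM in DMSO, 271, 129 and 107 after genistein).

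Genes of energy metabolism had shares of calls below or near those of all genes. Of 51 tested subunits of oxidative phosphorylation 2 rose and 2 fell (3.9% each), with a median of 0.17. The median was 0.02 and 0.06 without genistein 1 or DMSO 1 and 0.42, 0.61, 0.30 and 0.39 without DMSO 2, DMSO 3, genistein 2 or genistein 3. It was 0.01 without DMSO 1 and genistein 2 together. Counts without 1 library were 1 to 4 higher and 0 to 2 lower, the extremes being 4 higher without DMSO 3 and 0 lower without DMSO 2 or genistein 2. Of 30 genes of glucose metabolism 2 rose and 4 fell (6.7% and 13.3%). PKLR, the pyruvate kinase of liver, fell from 82.3, 71.9 and 60.5 to 11.2, 12.6 and 9.62 FPKM, and SLC2A3, the transporter GLUT3, from 89, 60.9 and 56.9 to 12.2, 10.8 and 13.9 FPKM (limma adjusted p = 0.00367 and 0.00491). In the pathway to glucose, PCK1, the cytosolic carboxykinase, fell from between 139 and 159 to between 54.2 and 71.7 FPKM and PCK2, its mitochondrial counterpart, rose from between 290.0 and 449 to between 874 and 1240.2 FPKM (limma adjusted p = 0.0124 and 0.0119). PCK1 lost the threshold without DMSO 2 (limma adjusted p = 0.0584) and PCK2 without DMSO 2 (limma adjusted p = 0.0598). GAPDH and LDHA did not pass. The 4 falls were 2 without DMSO 2, 7 without DMSO 1 and 9 without DMSO 1 and genistein 2, and 1 rise was left without DMSO 2 or genistein 3.

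The largest changes included genes outside these groups. Among genes above 0 in all 6 libraries, PALLD, the actin-bundling protein palladin, rose 44.6-fold, from 1.11, 1.95 and 1.34 to 56.3, 54.9 and 85.5 FPKM (log2 change 4.74 ± 0.36, limma adjusted p = 0.00163). ACTA1, skeletal muscle actin, rose 16.1-fold, from 115, 113 and 137 to 2424, 2158 and 1298 FPKM (log2 change 3.95 ± 0.31, limma adjusted p = 0.00177). S100P, a calcium-binding protein, went from 123, 166 and 384 to 6355, 2826 and 3278 FPKM, and SLC20A1, a phosphate transporter, from 51, 77.3 and 68 to 805, 1148 and 757 FPKM (limma adjusted p = 0.00421 and 0.00163). TNFRSF12A, the receptor of TWEAK, went from 71.8, 105 and 134 to 1396, 2296 and 681 FPKM (log2 change 3.68 ± 0.47, limma adjusted p = 0.00502). NDE1 rose 15.3-fold but carried a failed-estimate status in 5 of the 6 libraries. All 15 of the largest rises above 0 held.

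Among the largest falls above 0, ACSS1, the mitochondrial acetyl-CoA synthetase, went from 85.2, 119.6 and 93.1 to 7.29, 3.23 and 4.11 FPKM (log2 change -4.14 ± 0.36, limma adjusted p = 0.00217). REEP6, a membrane-shaping protein, fell 24.3-fold, from 2615, 1208 and 778 to 71.1, 82.1 and 36.1 FPKM (log2 change -4.48 ± 0.51, limma adjusted p = 0.00385). CDK2AP1, an inhibitor of CDK2, fell from 702, 390.2 and 415 to 63.1, 28 and 11.6 FPKM (log2 change -4.09 ± 0.58, limma adjusted p = 0.00607). DMSO 1 was the highest library for REEP6, CDK2AP1, CIDEB, CITED4, NTN4 and PCSK1N. RSPO1, an R-spondin, was at 8160.0, 312 and 282 FPKM in DMSO, the first library far above the others, and at 14.4, 102 and 4.12 FPKM after genistein. It lost the threshold without any library but genistein 2 (limma adjusted p at most 0.133). NPIPA1 had the largest log2 fall (-7.01) but belongs to a duplicated family among whose copies reads could be split, and SAMD11 (-5.41) carried a failed-estimate status in 1 library. Apart from RSPO1, the 15 largest falls above 0 held.

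Genes listed at 0 in every DMSO library and risen include the epidermal protease inhibitor CSTA (173, 134 and 98.7 FPKM after genistein), the secreted factor METRNL (147, 103 and 59.7 FPKM), the receptor OSCAR (65, 73.9 and 29.9 FPKM) and the lipocalin PAEP (71.2, 38.1 and 39.5 FPKM). Those listed at 0 in every genistein library and fallen include the linker histone H1-4 (46.7, 41.4 and 57.5 FPKM in DMSO), the muscle protein SMPX (38.6, 44.2 and 44.2 FPKM) and ASB9 (37.6, 35.5 and 35.7 FPKM). All 7 held (limma adjusted p = 0.00156, 0.00163, 0.00179, 0.00163, 0.00163, 0.00163 and 0.00163), and no fold is given against a group at 0. Each met the filter only through its group above 0 and was picked for the size of its change, so these p-values give no independent support.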

How the data were processed

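RNA of HepG2 cells was read in 6 of 8 libraries (3 DMSO, 3 genistein); groups follow the titles, and the labels do not give the read depth, so the precision of a value rests on the 3 replicates. The FPKM values were deposited by the authors as gene tables, made with TopHat 1.1.0, Bowtie, Cufflinks 1.0.3 and Cuffdiff on hg18, per the submitters' processing notes. Each table also carries an estimation status per gene (a failed estimate is marked). Genes that reached 1 FPKM in 2 or more of the 6 libraries were taken as log2(FPKM + 1) and fitted with limma 3.58.1 in R 4.3.3 (empirical Bayes with intensity trend, 4 residual and 3.34 prior degrees of freedom), with Benjamini-Hochberg adjustment over all 12501 genes and a threshold of 0.05. The pseudocount of 1 understates changes of low genes. The script was tested on simulated data with known changes.

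The comparison, the 44 gene lists (which share members) and the 6 marker lists were chosen with earlier results of these data known, so the counts describe the lists and no list was tested as a set. Named genes were the key members of each list fixed by name, up to 8 further changed members with the smallest p, the 15 largest changes in each direction above 0 in all libraries with a group mean of at least 20 FPKM, the 10 largest with zeros allowed, the 12 most abundant changed genes and the 10 most abundant of all; a few further list members named in the text were chosen after their values were seen. Alternatives were other pseudocounts, filters, scalings, variance models, all 8 libraries, a replicate block and left-out libraries. The deviations of same-numbered DMSO and genistein libraries correlated at -0.149, -0.065 and -0.005, so numbers were not taken to pair them. Such correlations cannot exclude a pairing. Promoters (300 bases) and their motifs came from RefSeq GRCh38.p14 and were matched by symbol, with a single promoter kept per symbol, for 9411 of the tested genes. CEBPA, HP, UGT1A1, UGT1A9 and other list genes without an entry were not analysed here, and results for some further genes are not reported here. Scripts used Python 3.11.15, pandas 2.3.3, SciPy 1.17.1 and matplotlib 3.10.9.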

Additional observations from a re-analysis of the deposited data

How the results depend on the processing

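Genes changed numbered 2690, with 1329 higher and 1361 lower. They were 1546 (784 and 762) with all 8 libraries in the fit and 1103 (477 and 626) with the replicate block. Whether equal replicate numbers pair libraries is not known. With limma array weights, whose estimation gave a convergence warning, they were 5084 (2383 and 2701). Leaving out each library in turn gave 899 to 2652 changed genes, 437 to 1160 higher and 462 to 1492 lower; the count is lowest without DMSO 2 and highest without DMSO 1. Other pseudocounts, filters, scalings and trend settings, and leaving out DMSO 1 and genistein 2 together, gave 2290 to 3603. Median-of-ratios scaling gave 1502 higher and 1919 lower, and leaving out genistein 1 gave 649 and 1166. The log2 change of HAMP ranged from 2.63 to 8.02 over 18 alternatives (limma adjusted p 0.000174 to 0.0243) and from 4.56 to 4.86 without 1 library; it could not be fitted among genes above 0 in all 6 libraries. Of 324 changed named genes none reversed under any of these alternatives, 140 lost the threshold with the block, 100 with all 8 libraries, 67 without DMSO 1 and genistein 2, 36 with a pseudocount of 0.1 and 1 with array weights. Of 132 named genes that did not pass, 44 changed sign while not passing. The causes of these differences were not tested.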

Other observations

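Of 11 tested metallothionein and zinc genes 3 rose and 1 fell (27.3% and 9.1%, median log2 change on the log2(FPKM + 1) scale 1.71). The median was 1.07 without DMSO 1 and 0.84 over members above 0 in all 6 libraries, and the fall was lost without DMSO 2, DMSO 3 or genistein 3. MT2A, the most abundant metallothionein, stood at 428, 512 and 311 FPKM in DMSO 1, 2 and 3 and 4672, 13027 and 1952 FPKM in genistein 1, 2 and 3, a 15.7-fold rise (log2 change 3.59 ± 0.66, limma adjusted p = 0.0124) that held in every fit without 1 library. MT1X was listed at 0 in each DMSO library and reached 155, 647 and 89 FPKM after genistein, and MT1G went from 0, 34.1 and 13.1 to 132, 292 and 76.2 FPKM (limma adjusted p = 0.0136 and 0.0497), but these are near-identical copies and reads could be split between them. MT1X lost the threshold without DMSO 2 (limma adjusted p = 0.0567) and MT1G without DMSO 3 or any genistein library (limma adjusted p at most 0.133). MTF1, the factor that senses zinc and drives metallothionein genes, did not pass (3.56 to 5.37 FPKM in DMSO, 6.61 to 11.3 after genistein, limma adjusted p = 0.151).

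Of 7 tested thyroid hormone genes 3 fell and none rose (42.9%, median -1.77). DIO1, the deiodinase that activates thyroxine in liver, went from 194, 83.9 and 57.1 FPKM to 0 in all genistein libraries (log2 change -5.77 ± 0.80, limma adjusted p = 0.00585) and held, as did the thyroxine carrier TTR described in the report. SERPINA7, thyroxine-binding globulin, did not pass, at 229, 218 and 210.5 FPKM in DMSO and 52.5, 0 and 44.8 FPKM after genistein (limma adjusted p = 0.0801). The receptor genes THRA and THRB did not pass either (log2 changes 0.43 ± 0.33 and -0.18 ± 0.59, limma adjusted p = 0.377 and 0.844).

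In the activin and inhibin family 3 of 12 tested genes rose and 2 fell (25% and 16.7%). The rises were 1 without DMSO 2 or genistein 3, and no fall was left without DMSO 2, DMSO 3, genistein 2 or genistein 3. INHBE, the hepatic activin E subunit, rose from 0, 4.81 and 3.46 to 33.6, 34.1 and 41.5 FPKM (log2 change 3.65 ± 0.67, limma adjusted p = 0.0122), and INHBC, the neighbouring activin C gene, fell from 7, 5.87 and 7.45 to 1.99, 0 and 0 FPKM (log2 change -2.43 ± 0.58, limma adjusted p = 0.0267). INHBE lost the threshold without genistein 3 (limma adjusted p = 0.0546) and INHBC without DMSO 2, DMSO 3, genistein 2 or genistein 3 (limma adjusted p at most 0.0868). In the KLF family 3 of 11 tested genes rose (27.3%). KLF5 rose from 2.52, 3.63 and 2.17 to 10.1, 14 and 9.41 FPKM (limma adjusted p = 0.0252). None of the 3 passed without DMSO 2, DMSO 3, genistein 1 or genistein 3, while 1 passed without genistein 2. Among 14 tested Wnt and Notch genes 2 rose and 3 fell (14.3% and 21.4%, beside 10.6% and 10.9% of all tested genes). JAG1, a Notch ligand, rose from 19.4, 27.9 and 29.5 to 352, 281 and 369 FPKM (log2 change 3.67 ± 0.27, limma adjusted p = 0.00163) and held. The 3 falls were 1 without DMSO 2 or genistein 3. Of 22 hypoxia-inducible genes 3 rose and 1 fell (13.6% and 4.5%), VEGFA rising from between 151 and 206 to between 355 and 464 FPKM with the threshold lost without DMSO 2 or any genistein library (limma adjusted p at most 0.0629). The 3 rises were 1 without DMSO 2 or any genistein library, 3 genes fell without DMSO 1 and none without any other library, and without DMSO 1 and genistein 2 together 1 rose and 3 fell.

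Among the 12 most abundant genes that changed, ACTG1, gamma actin, rose from 5809, 5058 and 6005 to 27278, 16584 and 22396 FPKM (limma adjusted p = 0.0345, lost without any 1 library (limma adjusted p at most 0.144)), and CST3, the protease inhibitor cystatin C, fell from 6039.9, 9004 and 7813 to 2619.7, 2936 and 1282 FPKM (limma adjusted p = 0.0328, lost without any library but DMSO 1 (limma adjusted p at most 0.113)).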
